A study of Homo sapiens with 9 samples.

Results

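The Polycomb complex core genes examined here are EZH1, EZH2, SUZ12, EED and JARID2 of Polycomb repressive complex PRC2, and RING1, RNF2, BMI1, PHC1 and PCGF6 of PRC1. They were chosen by gene symbol for their place in these complexes, with earlier results of these data known. Their counts beside the shares of all genes are therefore a description. All 10 were found among the 57820 genes of the count table, and all 10 passed the filter on low counts in every comparison. Their RNA was measured by Chrom-seq in 9 libraries from HEK293T, an established human embryonic kidney cell line. In every library the cells co-expressed, from plasmids, nuclear SunTag (GCN4) epitopes and the peroxidase APEX2 fused to an antibody fragment (scFv) that binds them, and after 48 hours their RNA was labeled with 500 µM biotin-aniline for 30 min and 1 mM H2O2 for 1 min. In the CBX1 group (3 libraries) the epitopes were joined to the chromodomain of CBX1, the module by which this protein reads the heterochromatin mark H3K9me3. In the CBX1_W42A group (3 libraries) that module carried the change W42A, and in the Control group (3 libraries) no reader was attached. The model is a single cell line with transiently expressed fusion proteins, the scFv-APEX2 one driven by the chicken β-actin promoter, and RNA of untreated cells was not analysed here. A value therefore describes the share of a gene's RNA among captured RNA, and the amount of that RNA in the cell, the number of cells labeled and the closeness of the RNA to the reader cannot be told apart.

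Polycomb proteins keep developmental genes silent through a pair of enzymatic activities on histones. PRC2 methylates histone H3 to give the mark H3K27me3, whereas PRC1 attaches ubiquitin to histone H2A and compacts chromatin. H3K9me3, the mark read by CBX1, is made by other enzymes. The core genes were not parts of the labeling system, and their counts are of cellular RNA, reads in introns included.

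The total count per library lay between 8379542 and 11082852, and a core gene had between 221 and 3742 counts in a library. The 10 genes together took 0.102% to 0.107% of the counts in the Control libraries, 0.0960% to 0.101% with CBX1 and 0.105% to 0.114% with CBX1_W42A. The genes VIM, KRT8, KRT18, PAX2, NEFM and INA, checked as markers of HEK293T, had counts in every library, PAX2 being the lowest with 36 to 102, and the T cell, red blood cell and islet markers CD3E, HBB and INS had 0 counts throughout. Of the other genes expected to be low or absent, the blood marker PTPRC had 0 to 2 counts per library, the heart marker MYH6 0 to 10 and the hepatocyte marker ALB 4 to 25. The share of mitochondrial counts was 3.16% to 3.50% in Control, 4.36% to 4.70% with CBX1 and 4.20% to 4.39% with CBX1_W42A, so it moved with the reader groups. Its part in the results on Polycomb genes was not tested. The study calls the replicates independent, but the labels do not say whether they came from separate cultures, so the p-values measure the spread between these libraries, which may be technical.

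The promoters of members that moved together are shown first, as 250 bases upstream of the RefSeq transcription start (GRCh38.p14), read in the direction of the gene. SUZ12, RNF2 and PCGF6 were lower with CBX1, and EED, which did not pass the test, stands beside them; all 4 have a single start in the RefSeq table. Capitals mark CCAAT and GGGCGG on either strand (ATTGG and CCGCCC on the other), and neighbouring GGGCGG copies may overlap.
SUZ12 (chr17:31936757-31937006, plus strand): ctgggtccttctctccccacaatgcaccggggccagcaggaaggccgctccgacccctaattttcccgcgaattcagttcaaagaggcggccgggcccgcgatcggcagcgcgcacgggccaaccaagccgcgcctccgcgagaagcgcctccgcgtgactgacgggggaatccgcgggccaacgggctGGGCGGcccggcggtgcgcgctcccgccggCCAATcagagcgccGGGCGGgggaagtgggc
RNF2 (chr1:185045308-185045557, plus strand): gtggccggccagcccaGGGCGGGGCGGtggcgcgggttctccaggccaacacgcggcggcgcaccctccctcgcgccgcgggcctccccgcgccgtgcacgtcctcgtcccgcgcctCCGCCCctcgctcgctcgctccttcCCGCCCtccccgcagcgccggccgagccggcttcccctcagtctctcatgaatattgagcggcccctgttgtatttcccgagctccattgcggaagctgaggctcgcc
PCGF6 (chr10:103351141-103351390, minus strand): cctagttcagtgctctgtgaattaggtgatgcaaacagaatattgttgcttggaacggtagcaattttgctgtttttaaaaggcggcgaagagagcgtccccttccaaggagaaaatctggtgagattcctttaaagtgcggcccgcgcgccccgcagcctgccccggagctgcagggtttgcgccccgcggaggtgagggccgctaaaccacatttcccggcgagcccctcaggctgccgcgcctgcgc
EED (chr11:86244503-86244752, plus strand): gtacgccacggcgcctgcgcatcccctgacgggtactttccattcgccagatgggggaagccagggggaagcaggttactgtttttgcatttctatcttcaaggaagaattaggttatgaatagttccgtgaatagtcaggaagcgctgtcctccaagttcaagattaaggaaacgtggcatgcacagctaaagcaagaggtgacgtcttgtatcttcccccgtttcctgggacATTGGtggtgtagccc
The SUZ12 stretch held 1 CCAAT and 2 GGGCGG, that of RNF2 held 4 GGGCGG, that of EED held 1 CCAAT, and that of PCGF6 held none of these letters. All 10 core genes matched the table, with 14 entries in all, of which 4 contained CCAAT and 11 contained GGGCGG. Over all 35116 promoter entries of the same length, CCAAT was present in 32% and GGGCGG in 42.6%. The motifs TTTGGCGC and TTTCGCGC, also searched on both strands, were in 0 of the 14 entries and in 0.55% and 0.439% of all entries. SUZ12 and RNF2 each had 34 CpG dinucleotides in the 250 bases, PCGF6 had 19 and EED had 11, against a median of 11 over all entries. EED was the lowest of the members that did not pass. RING1 had 34 CpG, EZH1 26, EZH2 38 and 39 in its entries and JARID2 22 and 34, and every entry of these genes held GGGCGG. Of the other lower members, BMI1 had 35 and 54 CpG and PHC1 had 10 and 23. No motif searched was common to the 3 members that were lower with CBX1. BMI1 and PHC1, which were lower too, have several starts and are not shown.

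Levels are given as CPM, the count divided by the TMM-scaled library total and given per 1000000, and between genes they were compared only per kilobase of exon in which a read could be counted. On this per-length scale RING1 had the highest value of the core genes in Control, at 44.5 ± 1.34 CPM per kb (SD, n = 3). SUZ12 at 30.5 ± 1.48 and EZH2 at 30.4 ± 1.94 followed, and their libraries overlapped. PCGF6 stood at 27.4 ± 0.878 CPM per kb, below every EZH2 library. BMI1 at 17.9 ± 0.320, JARID2 at 16.3 ± 0.982 and EED at 15.7 ± 2.55 formed the middle of the order, in which JARID2 overlapped EED. PHC1 at 12.6 ± 1.79 overlapped EED but lay above RNF2 at 9.04 ± 0.0914, and EZH1 was the lowest at 6.82 ± 0.647 CPM per kb. With CBX1 the order differed in that EZH2 stood above SUZ12 without overlap, BMI1 below EED and JARID2 without overlap, EED above JARID2 with overlapping libraries, and EZH1 above RNF2 with overlapping libraries. Reads in introns were also counted for a gene, so the per-kb values of genes with long introns are upper figures for these exons. Exon length was the union over all annotated transcripts of a gene, which can far exceed 1 transcript. It was 10648 bases for EZH2 against 2654 in the canonical transcript, and 6807 against 2088 for EED. For RING1 it was 1813 against 1741. The order of genes therefore holds for this scale alone and may differ with the length of 1 transcript.

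**Figure D1:**
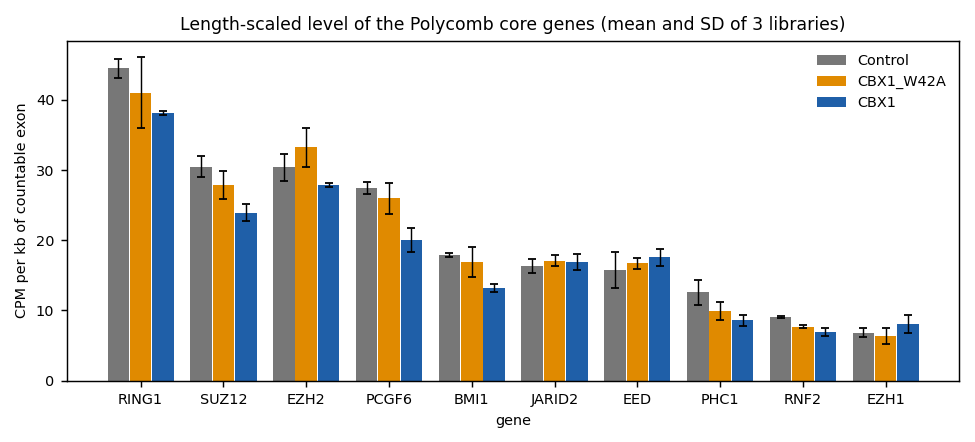
Mean level of each core gene (bars, CPM per kb of exon in which reads could be counted, axis from 0) with the SD of 3 libraries (error bars) in Control (grey), CBX1_W42A (orange) and CBX1 (blue). On this scale, which uses the exons of all transcripts of a gene, RING1 was highest at 44.5 CPM per kb in Control, and EZH1 was lowest at 6.82.

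The comparison of CBX1 with Control asked which RNAs were captured more or less when APEX2 was brought to H3K9me3 by the reader. In it 5 of the 10 core genes were lower with CBX1 and 0 were higher, by edgeR's quasi-likelihood test at an adjusted p under 0.05. The 5 were SUZ12 of PRC2 and RNF2, BMI1, PHC1 and PCGF6 of PRC1. They fell by 21.1% (SUZ12) to 31.5% (PHC1), and 0 of the 10 genes reached a log2 fold change of 0.75 in size. Of all genes 7.4% passed both thresholds, 7.06% higher and 0.34% lower, so calls in the direction of these 5 were rare. Over all 18837 genes tested, 20.1% passed the adjusted p in either direction, 9.46% lower and 10.6% higher. Lower values were more common among genes of like abundance: of the 6685 protein-coding genes between the lowest and the highest core gene in mean level, 20.5% were lower at this threshold and 4.05% were higher. The median log2 fold change of the 10 core genes was -0.28, that of these 6685 genes was -0.12 and that of all genes tested was 0.03. In 7 core genes every CBX1 library lay below every Control library, compared with 18.3% of all genes tested and 36% of the 6685.

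**Figure D2:**
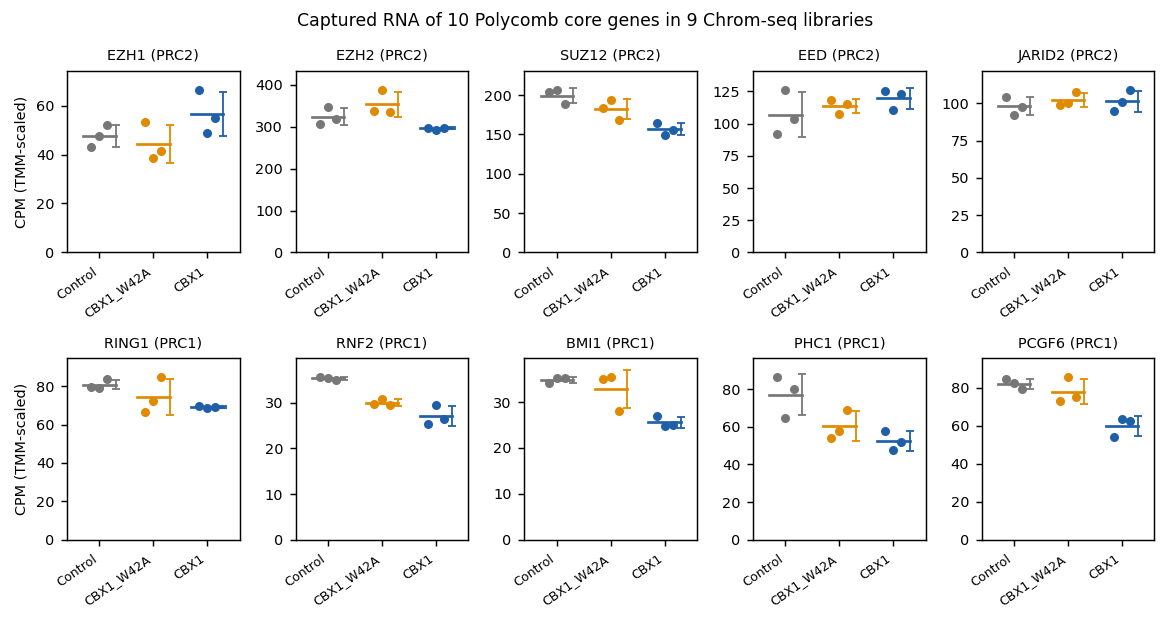
CPM of each core gene (panels, axes from 0) in the 3 libraries of Control (grey), CBX1_W42A (orange) and CBX1 (blue); horizontal lines are means and bars the SD. In RNF2, BMI1, PHC1 and PCGF6 all CBX1 libraries lay below all Control libraries, whereas the groups overlapped in EZH1, EED and JARID2.

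In PRC2, the catalytic subunits EZH2 and EZH1 did not pass the test. EZH2, the main H3K27 methyltransferase of PRC2 in dividing cells (chr7:148504475-148581413, hg19, minus strand), stood at 307, 347 and 318 CPM in Control replicates 1, 2 and 3, at 298, 294 and 298 CPM with CBX1, and at 339, 388 and 336 CPM with CBX1_W42A. The CBX1 libraries were the lowest and overlapped neither other group, but the log2 fold change to Control was -0.12 (SE 0.09, adjusted p = 0.363, edgeR). EZH1, its paralog with weaker activity (chr17:40852293-40897071, minus strand), stood at 43.3, 47.5 and 52.3 CPM in Control, at 66.4, 48.8 and 55.0 CPM with CBX1, and at 53.3, 38.4 and 41.4 CPM with CBX1_W42A. The 3 groups overlapped, CBX1 replicate 1 being the highest library, and the log2 fold change of CBX1 to Control was 0.26 (SE 0.12, adjusted p = 0.131, edgeR). Single libraries moved this value, to 0.14 without CBX1 replicate 1 and to 0.36 without CBX1 replicate 2.

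SUZ12 was the core PRC2 gene that was lower with CBX1. SUZ12, the scaffold that holds the PRC2 enzyme together (chr17:30264037-30328064, plus strand), stood at 204, 206 and 188 CPM in Control, at 165, 149.5 and 155 CPM with CBX1, and at 183, 194 and 169 CPM with CBX1_W42A. Every CBX1 library was below every library of the other groups, and the log2 fold change to Control was -0.34 (SE 0.09, 95% interval -0.53 to -0.15, adjusted p = 0.0139, edgeR). A partial copy, the pseudogene SUZ12P (chr17:29036317-29117926), went the other way, with 715 to 768 counts per Control library and 1016 to 1142 with CBX1 (log2 fold change 0.49, SE 0.10, adjusted p = 0.00267, edgeR). With CBX1_W42A against Control the copy had a log2 fold change of 0.42 (adjusted p = 0.0598) and SUZ12 one of -0.13, and with CBX1 against CBX1_W42A these were 0.04 and -0.24. Reads of a gene and its copy may be assigned to either, so the SUZ12 counts are uncertain; whether reads were exchanged was not tested. The log2 fold change of both counts added together, which must lie between the opposite values of its parts, was -0.05 (adjusted p = 0.727). For SUZ12 alone, the adjusted p without CBX1 replicate 2 or CBX1 replicate 3 was 0.0518 or 0.0610 (edgeR), so its call did not hold there.

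The other PRC2 members gave no call. EED, which binds H3K27me3 and stimulates the enzyme (chr11:85955586-85989855, plus strand), stood at 91.9, 126 and 103 CPM in Control, at 125, 110.3 and 123 CPM with CBX1, and at 118, 108 and 115 CPM with CBX1_W42A. Control replicate 2 was the highest library and Control replicate 1 the lowest, so Control spanned both other groups; the log2 fold change of CBX1 to Control was 0.17 (SE 0.11, adjusted p = 0.304), and without Control replicate 2 it was 0.30 (adjusted p = 0.0414, edgeR). JARID2, a cofactor that guides PRC2 to chromatin (chr6:15246527-15522252, plus strand), stood at 104, 92.5 and 97.4 CPM in Control, at 94.7, 101 and 109 CPM with CBX1, and at 99.0, 100.3 and 108 CPM with CBX1_W42A. The 3 groups overlapped, and the log2 fold change of CBX1 to Control was 0.06 with a 95% interval of -0.14 to 0.26.

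In PRC1, 4 of the 5 core genes were lower with CBX1 and the 5 had a median log2 fold change of -0.43, compared with 1 of 5 and a median of 0.06 in PRC2. The difference between the complexes was not tested, and their further subunits did not repeat it. Over 25 further PRC1 subunits the median log2 fold change was -0.07, with 13 below 0. Over 8 further PRC2 subunits it was -0.19, with all 8 below 0. RING1 and RNF2 encode the ubiquitin ligases that modify histone H2A. RNF2 (also RING1B, chr1:185014496-185071740, plus strand) stood at 35.5, 35.5 and 34.9 CPM in Control, at 25.4, 29.6 and 26.4 CPM with CBX1, and at 29.8, 30.9 and 29.5 CPM with CBX1_W42A. All CBX1 and all CBX1_W42A libraries were below the Control libraries, and CBX1 had a log2 fold change of -0.37 to Control (SE 0.11, 95% interval -0.60 to -0.14, adjusted p = 0.0245, edgeR). This call did not hold without Control replicate 1 or 3 or CBX1 replicate 1 or 3, with adjusted p between 0.0554 and 0.0930. RING1 (chr6:33176272-33180499, plus strand) stood at 79.5, 79.2 and 83.5 CPM in Control, at 69.5, 68.5 and 69.3 CPM with CBX1, and at 66.6, 72.1 and 84.6 CPM with CBX1_W42A. The CBX1 libraries were close to each other and below all Control libraries, whereas CBX1_W42A spanned both groups; the log2 fold change of CBX1 to Control was -0.21 (SE 0.09, adjusted p = 0.09998, edgeR).

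BMI1, PHC1 and PCGF6 had the largest differences among the core genes in this comparison, and each passed the test in all 18 alternative fits. PHC1, a polyhomeotic subunit that joins PRC1 complexes through its SAM domain (chr12:9066492-9094063, plus strand), stood at 86.3, 65.0 and 80.0 CPM in Control, at 57.9, 47.6 and 52.0 CPM with CBX1, and at 54.1, 57.8 and 69.2 CPM with CBX1_W42A. Control replicate 2 was the lowest Control library and still exceeded all CBX1 libraries, but not CBX1_W42A replicate 3. The log2 fold change of CBX1 to Control was -0.55 (SE 0.11, 95% interval -0.79 to -0.30, adjusted p = 0.00370, edgeR). Its pseudogene copy PHC1P1 (chr12:55804263-55808633) moved the same way, with 125 to 225 counts in Control and 110 to 112 with CBX1 (log2 fold change -0.61, SE 0.17, adjusted p = 0.0160), and PHC1 with the copy added had a log2 fold change of -0.56. M6PR, which overlaps the end of PHC1 on the opposite strand, had a log2 fold change of 0.04 (adjusted p = 0.794, edgeR).

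PCGF6, a RING-finger subunit that defines a variant form of PRC1 (chr10:105062553-105110891, minus strand), stood at 84.6, 82.5 and 79.4 CPM in Control, at 54.1, 63.8 and 62.4 CPM with CBX1, and at 73.3, 85.5 and 74.98 CPM with CBX1_W42A. The CBX1 libraries lay below all libraries of both other groups, and CBX1_W42A replicate 2 was the highest of the 9. The log2 fold change of CBX1 to Control was -0.44 (SE 0.10, 95% interval -0.65 to -0.24, adjusted p = 0.00473, edgeR). BMI1, the RING-finger partner of RNF2 in the canonical complex (chr10:22610140-22620413, plus strand), stood at 34.1, 35.2 and 35.1 CPM in Control, at 26.98, 24.8 and 25.1 CPM with CBX1, and at 35.01, 35.4 and 28.0 CPM with CBX1_W42A. The CBX1 libraries were again the 3 lowest, and CBX1_W42A replicate 3 lay between them and the rest. The log2 fold change of CBX1 to Control was -0.43 (SE 0.11, 95% interval -0.66 to -0.20, adjusted p = 0.0107, edgeR). For BMI1 the table holds the 3′ end alone: the readthrough gene COMMD3-BMI1 covers the rest of the locus on the same strand and had 0 to 2 counts per library, which leaves 1942 bases (18.9% of the span, chr10:22618472-22620413) with 0 coding bases.

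**Figure D3:**
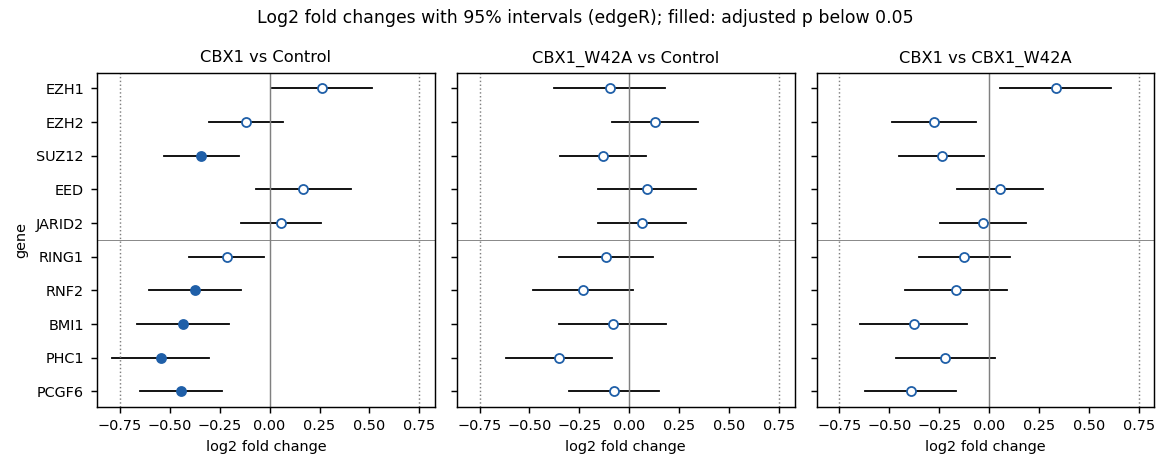
Log2 fold change (points, edgeR) with its 95% interval (lines) of each core gene in the 3 comparisons, PRC2 above and PRC1 below the horizontal line; filled points have an adjusted p under 0.05 and dotted lines mark 0.75. Filled points occur in CBX1 vs Control for SUZ12, RNF2, BMI1, PHC1 and PCGF6, and in neither other comparison.

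The plot of log2 fold change against mean level places these differences among all genes. In the core genes' range of level, 71.1% of the 6685 protein-coding genes had a log2 fold change below 0. After a lowess fit of fold change on level was subtracted, a setting chosen after the data were seen, BMI1, PHC1 and PCGF6 still passed, whereas SUZ12 (-0.18, adjusted p = 0.211) and RNF2 (-0.34, adjusted p = 0.0546) did not.

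**Figure D4:**
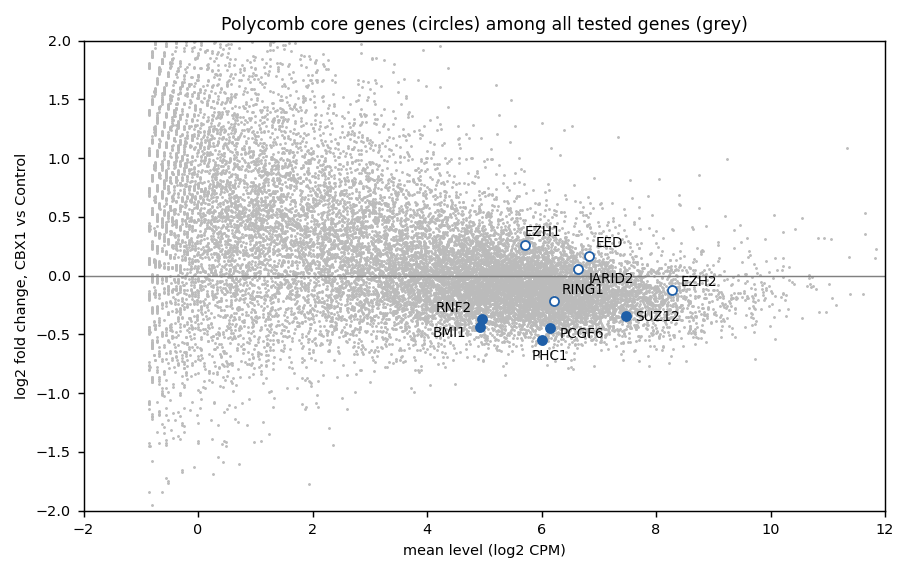
Log2 fold change of CBX1 to Control against mean level (log2 CPM) for all 18837 genes tested (grey) and the 10 core genes (circles, filled where the adjusted p was under 0.05); 437 genes lie outside the axes. The filled circles lie between -0.34 and -0.55, in the lower part of the grey cloud at their level.

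The comparison of CBX1_W42A with Control asked the same with the changed chromodomain. The CBX1_W42A samples were registered in a block apart from the other samples, and the labels do not say whether all were prepared together. A difference in preparation could not be told apart from the changed chromodomain. By edgeR 0 of the 10 core genes passed an adjusted p of 0.05, against 2.62% of the 18680 genes tested, and 0 passed by DESeq2. Of all genes 0.996% also reached a log2 fold change of 0.75 in size, and 0 core genes did. At an unadjusted p under 0.05, for which the share of all genes was not counted, there was 1, PHC1. Its log2 fold change was -0.35 (SE 0.13, 95% interval -0.62 to -0.09, adjusted p = 0.134, edgeR). RNF2 was the single core gene whose CBX1_W42A libraries all lay below Control, with a log2 fold change of -0.23 (adjusted p = 0.295, edgeR). So did 12.8% of all genes tested and 26.2% of the 6410 protein-coding genes in the core genes' range of level. The log2 fold changes of the other PRC1 genes were -0.12 for RING1, -0.08 for BMI1 and -0.08 for PCGF6. In PRC2 they were 0.13 for EZH2, 0.09 for EED, 0.06 for JARID2, -0.10 for EZH1 and -0.13 for SUZ12. The 95% intervals of PCGF6 (-0.30 to 0.15) and BMI1 (-0.35 to 0.18) lay on both sides of 0.

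The comparison of CBX1 with CBX1_W42A asked what depended on the intact chromodomain, and it tests the difference between the reader groups directly. The separate registration of the CBX1_W42A samples limits it in the same way. By edgeR 0 of the 10 core genes passed an adjusted p of 0.05, against 2.24% of the 19360 genes tested, and DESeq2 passed 1, PCGF6. With a log2 fold change of 0.75 in size as well, these were 0 core genes and 0.997% of all genes. At an unadjusted p under 0.05, for which the share of all genes was not counted, there were 5: EZH1, EZH2, SUZ12, BMI1 and PCGF6. PCGF6 came closest, with a log2 fold change of -0.39 (SE 0.11, 95% interval -0.62 to -0.16, adjusted p = 0.0613, edgeR), and its adjusted p by DESeq2 was 0.0489. BMI1 had a log2 fold change of -0.38 (95% interval -0.65 to -0.11, adjusted p = 0.129), EZH2 one of -0.27 (95% interval -0.48 to -0.06, adjusted p = 0.166) and SUZ12 one of -0.24 (adjusted p = 0.239, edgeR). In these 4 genes and in RNF2 (-0.17, adjusted p = 0.533, edgeR) all CBX1 libraries lay below all CBX1_W42A libraries. This held for 11.2% of the genes tested and 16.6% of the 6866 protein-coding genes in the core genes' range of level. EZH1 had the opposite sign, at 0.33 (95% interval 0.05 to 0.61, adjusted p = 0.209). The remaining values were -0.22 for PHC1, -0.12 for RING1, -0.03 for JARID2 and 0.05 for EED. CBX1 serves in both comparisons that name it and Control in both that name it, so the 3 sets of values are not independent.

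Ratios within a library do not depend on its scaling, and they were taken for the paralogs that can replace each other, EZH1 for EZH2 and RING1 for RNF2. The log2 ratio of EZH1 to EZH2 counts was -2.83, -2.87 and -2.60 in Control, -2.17, -2.59 and -2.44 with CBX1, and -2.67, -3.34 and -3.02 with CBX1_W42A. The CBX1 libraries had the 3 highest ratios, above both other groups without overlap. The difference of CBX1 to Control was 0.37 and to CBX1_W42A 0.61, each with p = 0.1 in a two-sided exact permutation test, the smallest that 3 against 3 libraries allow, and 0.3 after adjustment over the 6 tests of ratios. CBX1_W42A differed from Control by -0.24 (exact p = 0.4, adjusted 0.6), a value that ran from -0.41 without CBX1_W42A replicate 1 to -0.077 without CBX1_W42A replicate 2. The log2 ratio of RING1 to RNF2 counts was 1.16, 1.16 and 1.26 in Control, 1.45, 1.21 and 1.40 with CBX1, and 1.16, 1.22 and 1.52 with CBX1_W42A. These groups overlapped, and the differences were 0.16 for CBX1 to Control, 0.11 for CBX1_W42A to Control and 0.05 for CBX1 to CBX1_W42A, with exact p between 0.2 and 0.9. Without CBX1_W42A replicate 3 the difference of CBX1_W42A to Control was 0.00080.

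**Figure D5:**
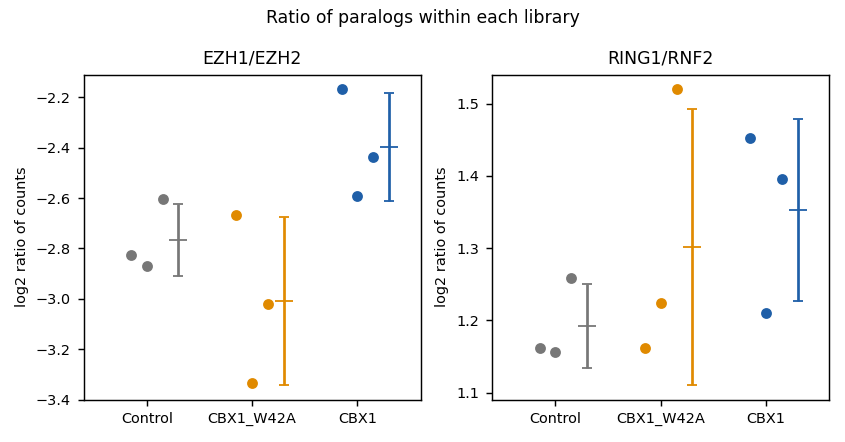
Log2 ratio of counts of EZH1 to EZH2 (left) and of RING1 to RNF2 (right) in each library of Control (grey), CBX1_W42A (orange) and CBX1 (blue), with the mean and SD of 3 beside them; the axes do not start at 0. The EZH1 to EZH2 ratio was -2.59 to -2.17 in the CBX1 libraries and -2.60 or lower in all others.

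The other genes of the Polycomb system, 39 in all, comprised 8 further PRC2 subunits, 25 further PRC1 subunits and 6 genes that remove the Polycomb marks or assist in it. All 39 were tested. With CBX1 against Control 7 passed the adjusted p, 5 lower and 2 higher, their median log2 fold change was -0.11, and 0 reached 0.75. The 7 of 39 stand beside 20.1% of all genes tested and 24.5% of the 6685 protein-coding genes of like level, and so lie near the background. Of the PRC2 partners, 1 of 8 was lower: RBBP7, a histone-binding subunit, at 445, 450.3 and 431 CPM in Control and 346, 341 and 368 CPM with CBX1 (log2 fold change -0.32, adjusted p = 0.0155). Of the PRC1 partners 4 of 25 were lower and 1 was higher. RYBP, which marks variant PRC1, stood at 82.7, 82.1 and 81.6 CPM in Control and at 62.6, 63.6 and 66.2 CPM with CBX1. Its groups did not overlap and had little spread (log2 fold change -0.35, adjusted p = 0.0131, edgeR). All CBX1 libraries lay below Control in 9 of the 39 genes and in 18.3% of all genes tested. PHC2, the paralog of PHC1, had a log2 fold change of -0.35 (adjusted p = 0.0266), and KDM2B, which brings PRC1 to CpG islands, one of -0.37 (adjusted p = 0.0316, edgeR).

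The 2 that were higher were KDM6B and AUTS2. KDM6B, a demethylase of H3K27me3, stood at 90.7, 67.3 and 97.8 CPM in Control and at 108, 133 and 139 CPM with CBX1 (log2 fold change 0.58, SE 0.13, adjusted p = 0.00450, edgeR). AUTS2, a subunit found in a PRC1 variant linked to gene activation, stood at 69.9, 60.5 and 82.8 CPM in Control and at 88.4, 90.1 and 102 CPM with CBX1 (log2 fold change 0.41, SE 0.11, adjusted p = 0.0174, edgeR). In both genes the CBX1 libraries lay above all Control libraries. So they did in 6 of the 39 genes and in 19.2% of all genes tested. With CBX1_W42A they stood at 91.5, 114 and 149 CPM (KDM6B) and at 84.9, 84.7 and 98.7 CPM (AUTS2). The log2 fold changes of CBX1_W42A to Control were 0.47 (adjusted p = 0.1001) and 0.33 (adjusted p = 0.142), and those of CBX1 to CBX1_W42A were 0.08 and 0.05, so a difference between the readers was not shown. With CBX1_W42A against Control 0 of the 39 passed by edgeR (2.62% of all genes) and 0 by DESeq2, with 6 at an unadjusted p under 0.05. With CBX1 against CBX1_W42A 0 passed by edgeR (2.24% of all genes) and 2 by DESeq2. At an unadjusted p under 0.05 there were 5, of which PHC3 came closest (log2 fold change 0.40, adjusted p = 0.0609, edgeR). For the 6 and the 5 the share of all genes at the unadjusted threshold was not counted.

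The genes whose level followed each of the 5 lower members most closely over the 9 libraries were named by Pearson's r of log2 CPM among the 14304 genes whose mean count reached 20. They were APPL1, FAM126A and ZZZ3 for SUZ12, with r between 0.976 and 0.991, and PPP2R2A, RRP1 and DDX27 for RNF2, with r between 0.984 and 0.993. For BMI1 they were BTAF1, ELOVL2 and FAM126A (r between 0.973 and 0.985), for PHC1 NELFCD, DENND1A and PHTF2 (r of 0.968 each), and for PCGF6 NUPL1, PPP1R15A and DYNC1LI1 (r between 0.976 and 0.988). None of these is a Polycomb gene of the lists used, and FAM126A was named for both SUZ12 and BMI1. The 9 points of each r share the same libraries, scaling and group differences, and the genes were picked as the highest of many, so the values are a description.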

How the data were processed

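HEK293T Chrom-seq libraries (3 groups of 3 replicates, grouped by their labels) were analysed. The deposited values are raw counts per gene, without normalization. The submitters' notes name fastp 0.23.1 for trimming, HISAT2 2.1.0 for alignment to the build hg19 and featureCounts 2.0.1 for counting, and the gene identifiers are those of GENCODE v19. The counts show that reads in introns were included and that reads in several genes of a strand went to none; the strand setting is not given in the sources used here. In R (version 4.3.3), pairs of groups were tested with edgeR (version 4.0.16): TMM factors, a summed count above 18 over 6 libraries, and the quasi-likelihood test with Benjamini-Hochberg adjustment over all genes. DESeq2 (version 1.42.0) was an alternative. CPM used TMM factors over 9 libraries. The edgeR test was checked on data simulated from CBX1 and Control, with planted changes larger than those of the Polycomb genes. Its behaviour at their sizes was not checked. The members and gene lists were chosen with earlier results of these data known. Every core gene was named; of the other Polycomb genes, those with an adjusted p under 0.05 in any comparison, except 1 that is counted but not reported here, and PHC3, SUZ12P, PHC1P1 and M6PR, chosen after their values were seen. For each core gene that passed, the 3 genes with the highest Pearson's r were named. Replicates differed by more than sampling noise (chi-square per degree of freedom 4.95 to 12.4). Gene structures came from GENCODE v44 on hg19, promoters from RefSeq on GRCh38.p14. Other alternatives were RLE, upper-quartile or no scaling factors, 3 other filters, a joint fit of the 9 libraries, blocking on replicate number, omitting each library, a minimum log2 fold change of 1, 0.5 added to counts in the ratios and, added after the data were seen, removal of trends with GC content or abundance and the sum of gene and pseudogene copy.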

Additional observations from a re-analysis of the deposited data

How the results depend on the processing

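Over 18 alternatives for CBX1 against Control, BMI1, PHC1 and PCGF6 passed the adjusted p of 0.05 in all, SUZ12 in 12 and RNF2 in 10. The number of core genes that passed, 5 by TMM, was 3 with upper-quartile factors, 3 with the library size alone, 3 with the abundance trend removed, and 3 to 6 when 1 library was left out, the lowest without CBX1 replicate 3 and the highest without Control replicate 2. The number called at log2 0.75 was 0 in every setting run and comparison. Of the other Polycomb genes 7 passed, which became 4 with upper-quartile factors, 3 with the library size alone, 3 with the abundance trend removed and 3 to 7 when 1 library was left out. For CBX1_W42A against Control, 0 core genes passed in any setting run, and 1 other Polycomb gene passed without the filter on low counts. For CBX1 against CBX1_W42A, the core genes that passed numbered 1 (PCGF6) by DESeq2 and 1 without the filter. The other Polycomb genes that passed there numbered 2 by DESeq2, and 1 with the library size alone, without the filter, with at least 10 counts in every library, with all 9 libraries in one fit or with the abundance trend removed, and 0 to 1 when 1 library was left out. The causes were not tested.

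With the replicate number as a block, the genes that passed went from 3780 to 2460, from 489 to 591 and from 434 to 1036 over the 3 comparisons; 4 core genes and 4 other Polycomb genes passed for CBX1 against Control, 0 and 0 for CBX1_W42A against Control, and 1 (PCGF6, adjusted p = 0.0192) and 2 for CBX1 against CBX1_W42A. Deviations from the group means of same-numbered libraries correlated at -0.19, -0.21 and 0.04 between CBX1 and Control. The numbers did not pair these libraries. Between CBX1_W42A and Control the values were -0.11, 0.14 and 0.13, and not every library correlated best with its own number. Between CBX1 and CBX1_W42A they were 0.17, 0.08 and 0.12. There every library but CBX1 replicate 2 correlated best with its own number, and that one differed little (0.086 with CBX1_W42A replicate 3). Pairing between these 2 groups was not settled.

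Values near 0 changed sign. For CBX1 against Control these were JARID2 (-0.0125 with the GC trend removed) and EZH2 (0.0529 with the abundance trend removed). For CBX1_W42A against Control they were BMI1 (0.00411 with upper-quartile factors, and -0.139 to 0.0214 over the libraries left out, the highest without CBX1_W42A replicate 3), PCGF6 (0.0123 with upper-quartile factors and 0.0245 with the abundance trend removed), EED (-0.00067 without Control replicate 1 to 0.24 without Control replicate 2) and SUZ12 (0.0503 with the pseudogene copy added). For CBX1 against CBX1_W42A it was JARID2 (0.00898 with the library size alone, 0.0235 with the abundance trend removed, and -0.0864 to 0.0150 over the libraries left out). The difference in the log2 RING1 to RNF2 ratio there ran from -0.0195 without CBX1_W42A replicate 1 to 0.16. With 3 libraries a group and a biological coefficient of variation of 10.5% to 11.7%, small differences had intervals much wider than the values. The interval of JARID2 for CBX1 against Control ran from -0.14 to 0.26 around a value of 0.06. That of BMI1 for CBX1_W42A against Control ran from -0.35 to 0.18 around -0.08.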
